A study of Danio rerio with 2 samples.

Results

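The Otx, Lmx1, Msx and Barhl genes examined here are 9 homeobox genes, otx1, otx2a, otx2b, lmx1a, lmx1ba, lmx1bb, msx1a, msx1b and barhl2, out of 25432 genes measured in the adult zebrafish forebrain choroid plexus. They were chosen by name as factors of the dorsal midline and of the choroid plexus epithelium, with earlier results of these data known. All 9 were found under those names in the authors' table. The choroid plexus is the folded secretory tissue that borders the brain ventricles. Total RNA came from 2 pools of 12 to 19 dissected tissues each, from fish that had no treatment, were aged 6 to 8 months and measured more than 3 cm. Per the labels the pineal gland had been removed, but replicate 1 held pineal markers at high levels, given below with the genes they touch. The fish were AB and nacre (mitfa-/-), a line without functional mitfa and without melanophores, and the sources used here do not say which fish went into which pool. Both pools belong to 1 group, replicate 1 being the pool titled batch 1 and replicate 2 the pool titled batch 2, so every difference between them is also a difference between batches and no test between groups exists. Only adults were sampled, so whether a gene was kept or lost since the embryo was not measured.

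All 9 genes encode homeodomain transcription factors, proteins that bind DNA and set the regional identity of cells. Otx factors pattern the forebrain and midbrain, and in mice Otx2 is needed for choroid plexus development. Lmx1 factors carry LIM domains beside the homeodomain, and in mice Lmx1a drives formation of the roof plate, the dorsal midline from which choroid plexus epithelium arises. Msx factors are repressors that act downstream of BMP signals in the dorsal midline, and Barhl factors are known for patterning of the diencephalon and of neurons.

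Of the 9 genes, 3 stood at high levels, 2 at moderate levels and 4 at low levels, below 10 TPM in both replicates. Levels are in TPM, which divide reads by transcript length, add up to the same total in every library and so can be compared between genes. Detection meant 1 TPM or more in each replicate. By this rule 7 of the 9 genes were detected, beside 54.6% of all genes. Of the 9, 5 reached a TPM of 10 in both replicates, beside 26.3% of all genes, and 3 reached 100, beside 3.12% of all genes. The median of the members' mean levels was 20.6 TPM, and that of all genes was 2.53 TPM. Because the members were chosen with earlier results known, these contrasts with all genes are description only. In bulk tissue, fewer cells of a type and less RNA per cell cannot be told apart.

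Among the Otx genes, otx2b stood far above otx2a and otx1. The b copy of the zebrafish Otx2 duplicates, otx2b (ENSDARG00000011235), was at 273 TPM in replicate 1 and 331 TPM in replicate 2, from 3761 and 6006 expected counts. Its mean level of 302 ± 40.5 TPM (SD, n = 2) ranked 314 of all genes. The other copy, otx2a (ENSDARG00000030703), was at 24.0 TPM in replicate 1 and 22.6 TPM in replicate 2, from 288 and 330 counts, and the counting intervals of its replicates overlapped. The mean level of otx2a was 23.3 ± 0.940 TPM (SD, n = 2). The gene otx1 (ENSDARG00000094992), the Otx1 ortholog, was at 23.9 TPM in replicate 1 and 17.3 TPM in replicate 2, from 480 and 425 counts, with a mean of 20.6 ± 4.68 TPM (SD, n = 2). The ranges of otx2a and otx1 overlapped, so their order was not settled by these libraries. The level of otx2b was 14.7 times that of otx1 by their means, and otx2b lay above both other genes in each replicate. The 3 Otx members summed to 321 and 370.4 TPM in replicates 1 and 2, of which otx2b held 85.1% and 89.2%.

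Among the 3 Lmx1 members, lmx1bb held nearly the whole level. The gene lmx1bb (ENSDARG00000068365), a copy of the mammalian Lmx1b gene, was at 145 TPM in replicate 1 and 136 TPM in replicate 2, from 2551 and 2914 counts, with a mean of 141 ± 6.24 TPM (SD, n = 2). Its duplicate lmx1ba (ENSDARG00000104815) was at 1.55 TPM in replicate 1 and 0.310 TPM in replicate 2, from only 14 and 3 counts. The roof plate gene lmx1a (ENSDARG00000020354) was at 0.720 TPM in replicate 1 and 0.0800 TPM in replicate 2, from 6 counts and 1 count. Both low genes missed the threshold of 1 TPM in at least 1 replicate, and both had reads in each library. The 95% Poisson intervals ran from 0.264 to 1.57 TPM and from 0.0020 to 0.446 TPM for lmx1a in replicates 1 and 2. They ran from 0.847 to 2.60 TPM and from 0.0639 to 0.906 TPM for lmx1ba. These intervals cover counting error only. Within the 3 Lmx1 members, lmx1bb made up 98.5% of the summed TPM in replicate 1 and 99.7% in replicate 2.

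The Msx members were low in both pools. The gene msx1b (ENSDARG00000008886) was at 3.57 TPM in replicate 1 and 6.18 TPM in replicate 2, from 37 and 80 counts, with a mean of 4.88 ± 1.85 TPM (SD, n = 2). Its duplicate msx1a (ENSDARG00000116118) was at 2.56 TPM in replicate 1 and 1.55 TPM in replicate 2, from 20 and 15 counts, with a mean of 2.06 ± 0.714 TPM (SD, n = 2). Both were detected and neither reached 10 TPM. The only Barhl member, barhl2 (ENSDARG00000104361), was at 221 TPM in replicate 1 and 215 TPM in replicate 2, from 2528 and 3230 counts. Its mean of 218 ± 4.50 TPM (SD, n = 2) ranked 415 of all genes, above 98.4% of them.

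**Figure D1:**
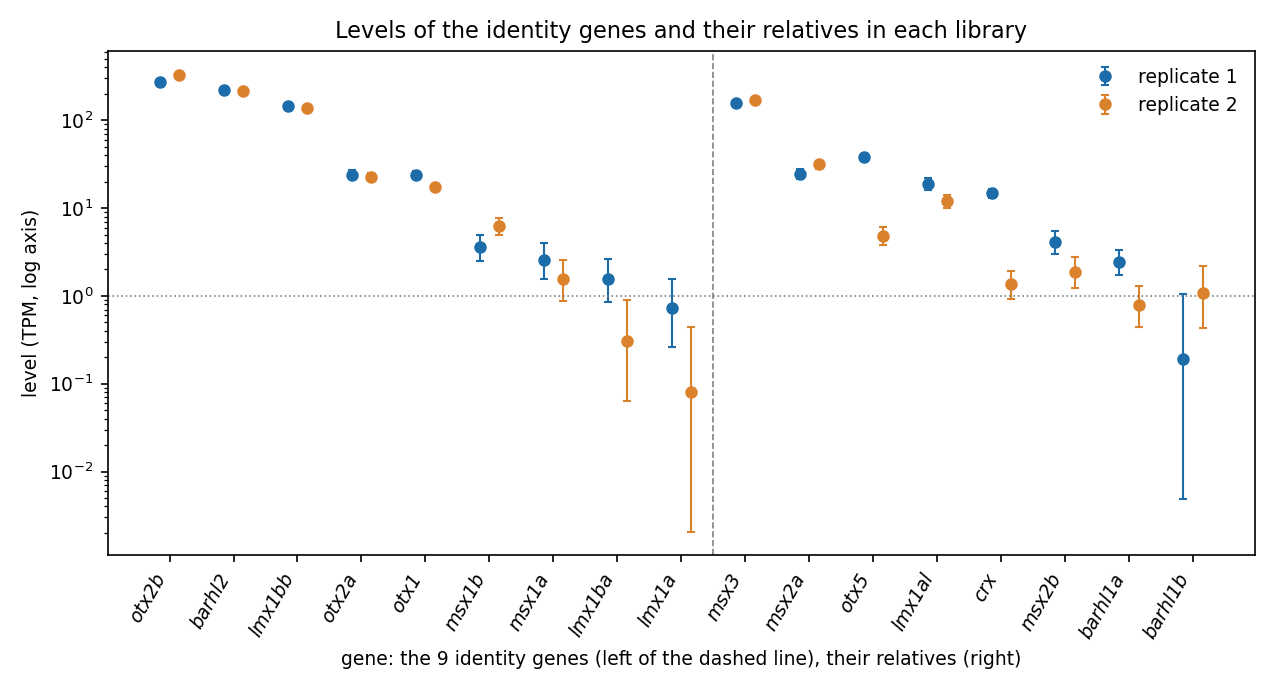
Level of each gene in TPM (log axis) in replicate 1 (blue) and replicate 2 (orange), with 95% Poisson intervals of the counts as bars, for the 9 identity genes on the left and their 8 family relatives on the right, each in order of mean level. The points for otx2b, barhl2 and lmx1bb lie above 100 TPM in both libraries, and lmx1a and lmx1ba fall below the dotted line at 1 TPM in replicate 2.

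In order of mean level the genes ran otx2b, barhl2, lmx1bb, otx2a, otx1, msx1b, msx1a, lmx1ba and lmx1a. Neighbours whose replicate ranges did not overlap were otx2b and barhl2 (1.38-fold apart), barhl2 and lmx1bb (1.55-fold), lmx1bb and otx2a (6.04-fold), otx1 and msx1b (4.22-fold), and msx1b and msx1a (2.37-fold). The ranges overlapped for otx2a and otx1, met for msx1a and lmx1ba at 1.55 TPM, and overlapped for lmx1ba and lmx1a. A 6.04-fold gap thus separated the 3 high genes from the rest.

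The high members otx2b and lmx1bb were each the b copy of a duplicate pair. The level of otx2b was 11.4 times that of otx2a in replicate 1, with a 95% counting interval from 10.1 to 12.9, and 14.6 times in replicate 2, with an interval from 13.1 to 16.4. The level of lmx1bb was 93.6 times that of lmx1ba in replicate 1, with an interval from 55.7 to 172, and 439 times in replicate 2, where the interval ran from 149 to 2119 because lmx1ba had only 3 counts. The Msx1 copies were closer together. The ratio of msx1b to msx1a was 1.39 in replicate 1, with an interval from 0.787 to 2.53 that spans equal levels, and 3.99 in replicate 2, with an interval from 2.29 to 7.48. Among all pairs of symbols ending in a and b whose higher copy averaged 10 TPM or more, 42.9% of 1428 pairs were unequal by 4-fold or more, in 1 direction in both libraries, on the log2(TPM + 1) scale. The Otx2 and Lmx1b pairs were both unequal by this rule, and the Msx1 pair was too low to enter it. How often the b copy was the higher one was not counted. Among the relatives msx2a stood above msx2b, by 5.88-fold and 16.7-fold in replicates 1 and 2, and the order of the Barhl1 copies differed between the replicates.

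**Figure D2:**
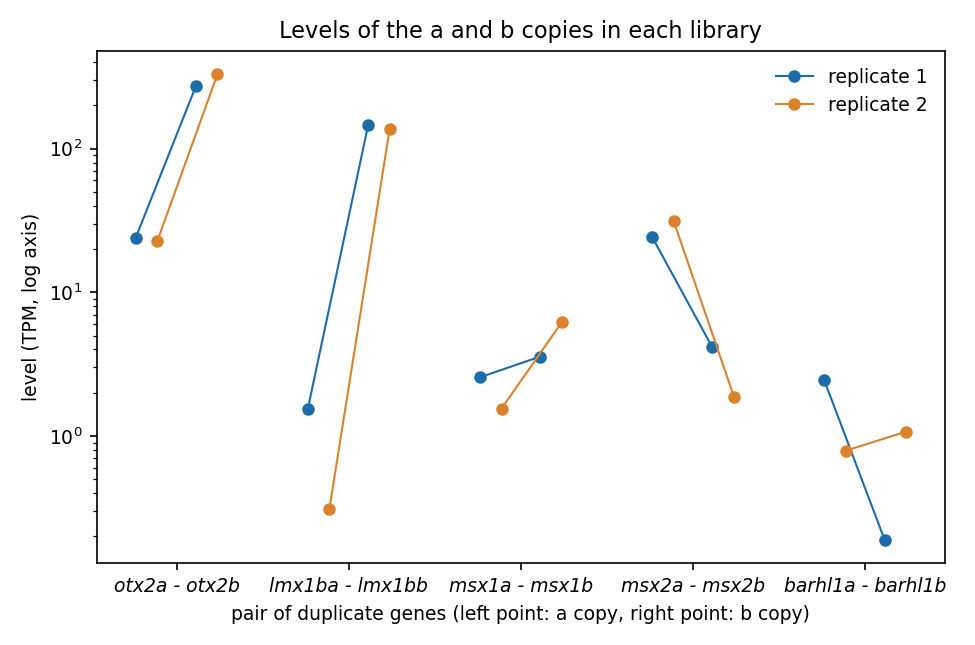
Levels of duplicate copies in TPM (log axis), with the a copy as the left point and the b copy as the right point of each line, in replicate 1 (blue) and replicate 2 (orange). The b copy lies above the a copy in both libraries for otx2, by 11.4-fold and 14.6-fold, and for lmx1b, by 93.6-fold and 439-fold, while msx2b lies below msx2a.

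Most of the Msx level came from a close relative outside the 9 genes. The gene msx3, of the same repressor family, was at 159 TPM in replicate 1 and 171 TPM in replicate 2, and its mean of 165 ± 8.78 TPM (SD, n = 2) was 33.9 times that of msx1b. The gene msx2a was at 24.3 and 31.4 TPM in replicates 1 and 2, and msx2b was at 4.13 and 1.88 TPM. With all 5 Msx genes counted, the family summed to 203 ± 13.3 TPM (SD, n = 2), of which msx3 held 82.1% and 80.7%. The 2 Msx members alone summed to 6.93 ± 1.13 TPM. The Msx family was thus transcribed mostly from genes other than msx1a and msx1b.

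In the other families the leading member stayed the leading gene. The Lmx1 relative lmx1al was at 18.8 TPM in replicate 1 and 12.0 TPM in replicate 2, with a mean below that of lmx1bb by 9.15-fold and above those of lmx1a and lmx1ba. With lmx1al counted, lmx1bb held 87.3% and 91.7% of the summed Lmx1 level in replicates 1 and 2. The Barhl relatives were low and missed 1 TPM in 1 replicate each, with barhl1a at 2.44 and 0.790 TPM and barhl1b at 0.190 and 1.07 TPM in replicates 1 and 2. The mean of barhl2 was 135 times that of barhl1a. Thus barhl2 made up 98.8% and 99.1% of the summed Barhl level in replicates 1 and 2.

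Otx relatives that are known from the pineal gland differed sharply between the pools. The gene otx5, which in zebrafish is known for pineal gene expression, was at 38.2 TPM in replicate 1 and 4.83 TPM in replicate 2. The photoreceptor and pineal factor crx was at 14.8 TPM in replicate 1 and 1.35 TPM in replicate 2. On the log2(TPM + 1) scale, after the shift of the median gene was removed, the ratios of replicate 2 over replicate 1 were -2.49 and -2.50. On that scale replicate 2 was lower by 5.63-fold for otx5 and by 5.64-fold for crx. As shares of all counts, with no addition of 1 and no shift removed, the log2 ratios were -2.86 for otx5 and -3.33 for crx. Of the 20 pineal and photoreceptor marker genes, 19 reached 1 TPM in replicate 1 and 12 in replicate 2, beside 15348 and 14449 of all 25432 genes. None of the 20 was at 0 counts in both. That marker list summed to 3391 TPM in replicate 1 and 59.0 TPM in replicate 2, and 16 of its 19 genes that averaged 1 TPM or more were lower in replicate 2 by 2-fold or more, beside 5.22% of all genes at that level. RNA of these markers was thus present in replicate 1, and at a far lower sum in replicate 2, though the labels state removal of the gland. Where this RNA came from was not tested. The list was led by rcvrnb (862 and 5.50 TPM), pde6ha (811.5 and 13.0 TPM) and exorh (656 and 11.7 TPM in replicates 1 and 2). The member otx2b was 7.16 times as high as otx5 in replicate 1 and 68.4 times in replicate 2. With otx5 and crx counted, otx2b held 73.1% and 87.8% of the summed Otx level in replicates 1 and 2.

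The members' own differences between the pools were compared with those of all genes. Ratios are given as log2 of TPM + 1, replicate 2 over replicate 1, less the median shift of -0.25 over genes that averaged 1 TPM or more. Of the 7 members at that level none was past 2-fold, beside 8.77% of all genes there, and with so few members a count of 0 is near that share. Above a mean of 10 TPM, where 5 members lie, that share was 5.05%. The other members, lmx1ba and lmx1a, averaged under 1 TPM, and the addition of 1 to each TPM holds down ratios of such low genes. With 0.1 in its place, lmx1a, lmx1ba and msx1b passed 2-fold. The share of all genes past 2-fold with 0.1 was not computed, so these members cannot be set against it.

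The gene otx2b had a ratio of 0.53 and msx1b of 0.91, and both were positive under all 7 alternatives run. The otx2b counts as a share of the library, with no division by length (CPM), stood at 321 CPM in replicate 1 and 447 CPM in replicate 2. The log2 ratio of those CPM, with no shift removed, was 0.48, with a counting interval from 0.42 to 0.54. For msx1b it was 0.91 in CPM, with an interval from 0.33 to 1.52. Thus the higher pool for both genes was replicate 2, the pool with the lower pineal marker sum, and the part of the pineal markers in these differences was not tested.

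The genes lmx1ba, lmx1a, msx1a and otx1 had negative ratios of -0.71, -0.42, -0.23 and -0.19, and these too kept their sign under all 7 alternatives. The CPM log2 ratio, with no addition of 1 and no shift removed, was -2.42 for lmx1ba and -2.78 for lmx1a. The counting interval of that ratio lay below 0 for lmx1ba, from -4.86 to -0.58, and for otx1, from -0.57 to -0.18. It included 0 for lmx1a, from -8.31 to 0.26, and for msx1a, from -1.68 to 0.42. The ratios of barhl2 (0.21), otx2a (0.17) and lmx1bb (0.16) were small, and became -0.04, -0.08 and -0.09 when the median shift was kept. The CPM log2 ratio of barhl2 was 0.15, with a counting interval from 0.08 to 0.23 that lay above 0. The interval included 0 for otx2a, from -0.24 to 0.23, and for lmx1bb, from -0.08 to 0.07. On the log2(CPM + 1) scale with the median shift removed, lmx1bb, otx2a and barhl2 were at 0.15, 0.15 and 0.31. The values of lmx1bb and barhl2 then lay above their intervals, so where these intervals lie depends on the shift. Like the pineal marker sum, the summed level of the neuron markers was lower in replicate 2. It was 164 TPM in replicate 1 and 95.7 TPM in replicate 2, led by stmn1b (87.7 and 53.5 TPM), map2 (29.4 and 31.8 TPM) and snap25b (15.9 and 3.84 TPM). Of the 20 markers 14 and 4 were at 1 TPM or more, beside 15348 and 14449 of all 25432 genes. Among the 8 that averaged 1 TPM or more, 2 were lower in replicate 2 by 2-fold or more, beside 5.22% of all genes at that level. The part of the neuron markers in the low levels of lmx1a and lmx1ba was not tested.

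**Figure D3:**
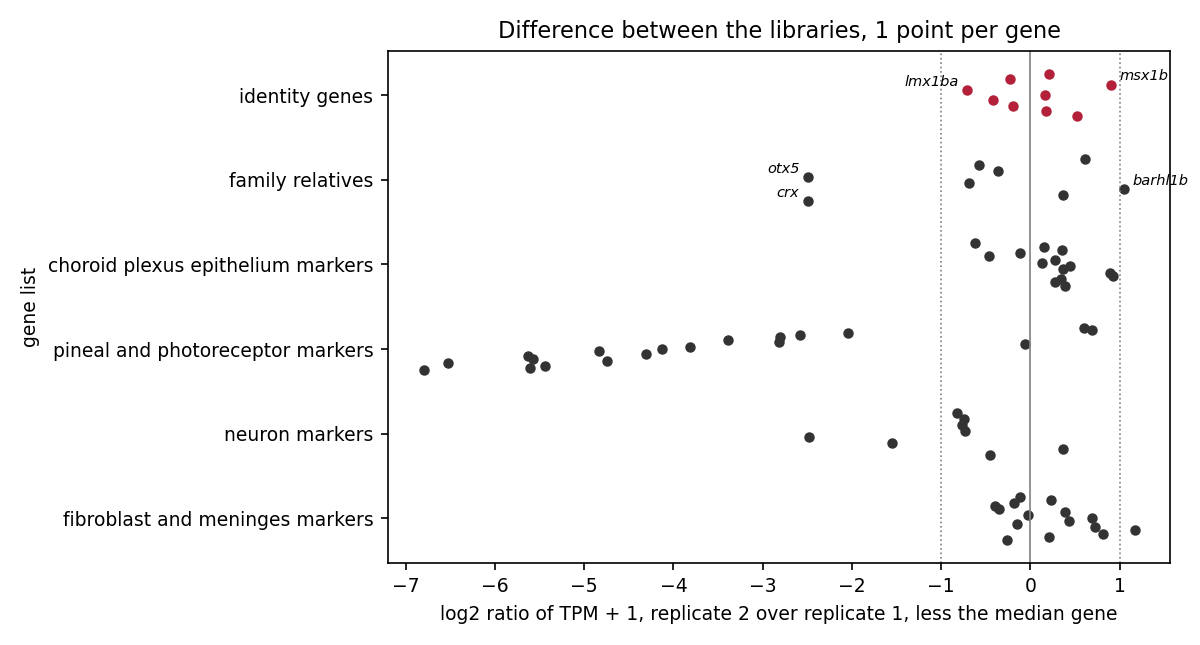
Log2 ratio of TPM + 1, replicate 2 over replicate 1, less the median gene, with 1 point per gene for the 9 identity genes (red), their relatives and marker lists (genes averaging 1 TPM or more), and dotted lines at 2-fold. The identity genes all lie between the dotted lines, from -0.71 for lmx1ba to 0.91 for msx1b. The addition of 1 holds down lmx1ba and lmx1a, whose CPM log2 ratios without it were -2.42 and -2.78. The relatives otx5 and crx lie at -2.49 and -2.50 on the side of the pineal markers, and barhl1b, averaging 0.630 TPM, lies at 1.05.

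The estimated transcript lengths also varied. RSEM, the program that made the counts, gives each gene a length weighted over its annotated transcripts. For otx2b, with 3 annotated transcripts, this length was 1803 bases in replicate 1 and 1890 bases in replicate 2. For barhl2, with 2 transcripts, it was 1540.3 and 1609 bases, and for lmx1bb, with 3, it was 2231 and 2176 bases. A longer weighted length lowers the TPM of a given count. Lengths were the same in both replicates for msx1a and msx1b. The expected counts of all 9 members were whole in both libraries, while 4.52% and 4.20% of all values in replicates 1 and 2 were not. Fractional counts arise where RSEM splits reads between genes.

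The high members ranked among the most abundant patterning factors listed for comparison. Those lists held factors of the dorsal midline, the telencephalon, the diencephalon and hypothalamus, the midbrain and isthmus and the hindbrain, with all hox genes and the family relatives. Of the 145 factors and members together, otx2b ranked 1, barhl2 ranked 2 and lmx1bb ranked 6 by mean TPM. Between them stood six3b, a factor of the anterior forebrain, at 196 ± 6.57 TPM, msx3, and the dorsal midline zinc finger factor zic1 at 155 ± 27.5 TPM (SD, n = 2). The members otx2a and otx1 ranked 19 and 21, msx1b and msx1a 34 and 42, and lmx1ba and lmx1a 48 and 59. Of the 48 hox genes in this pool 41 had no counts in either library, so low members still rank above many factors. The lists were chosen with earlier results of these data known.

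Factors of like level were sought for the 7 detected members as the genes with the smallest log2(TPM + 1) difference in the replicate where it was larger, over 2 libraries and 136 factors. The members themselves were not among those factors, so a member could lie closer than the factors named. The nearest factors to barhl2 were six3b, with a difference of 0.17, and msx3, with 0.48. Among the nearest to lmx1bb was her9 (0.21), a repressor of the hairy family, and those nearest to otx2a were six3a (0.12) and mafba (0.15). The nearest to otx1 were lef1 (0.22), a mediator of Wnt signals, and six3a (0.49). None of the 136 factors came as close to otx2b, for which the nearest of them, six3b and msx3, differed by 0.79 and 0.94. The nearest to msx1a were sox9b (0.21) and meis1b (0.25), and those nearest to msx1b were gli3 (0.69) and tfap2a (0.70). Likeness over 2 libraries reflects level only.

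Regional factor lists gave the setting of these levels. They held 31 dorsal midline, 26 diencephalon and hypothalamus, 18 telencephalon, 11 midbrain and isthmus and 8 hindbrain symbols. Symbols that matched no gene name were left out, among them en1a, en2a and pax2a of the midbrain and isthmus list. Their levels are therefore not given, and they do not count as undetected. Of all genes 54.6% were detected and 3.12% reached 100 TPM in both replicates, to be set beside each list. Of 30 matched dorsal midline factors, 19 were detected and 7 reached 100 TPM, with a median of 7.39 TPM. Among the highest were zic1 and zic2a, and zic2a was at 128 ± 18.9 TPM (SD, n = 2). Of 22 diencephalon and hypothalamus factors, 6 were detected, led by six3b, six3a at 25.4 ± 1.13 and lhx5 at 14.1 ± 6.10 TPM. The 15 telencephalon factors had 1 detected gene, foxg1b at 11.5 ± 1.37 TPM, followed by emx2 at 0.680 ± 0.594 and lhx2b at 0.665 ± 0.827 TPM (SD, n = 2). In replicate 1 alone 3 of them, with emx2 and lhx2b, were at 1 TPM or more, beside 15348 of all 25432 genes. The 8 midbrain and isthmus factors had 2 detected genes, en1b at 11.3 ± 2.77 and en2b at 2.54 ± 1.07 TPM, with fgf8a at 0 and 0.320 TPM. Of 7 hindbrain factors only mafba was detected, at 24.2 ± 1.40 TPM, a gene that macrophages also express, and egr2a and egr2b were below 1 TPM. Of the 48 hox genes, which mark the hindbrain and spinal cord, 41 had no counts in either library. The single detected one, hoxb8b, was at 19.8 TPM in replicate 1 and 8.61 TPM in replicate 2, from 146 and 79 counts, and next were hoxc10a at 0.230 and 0 TPM and hoxc6b at 0 and 0.170 TPM.

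**Figure D4:**
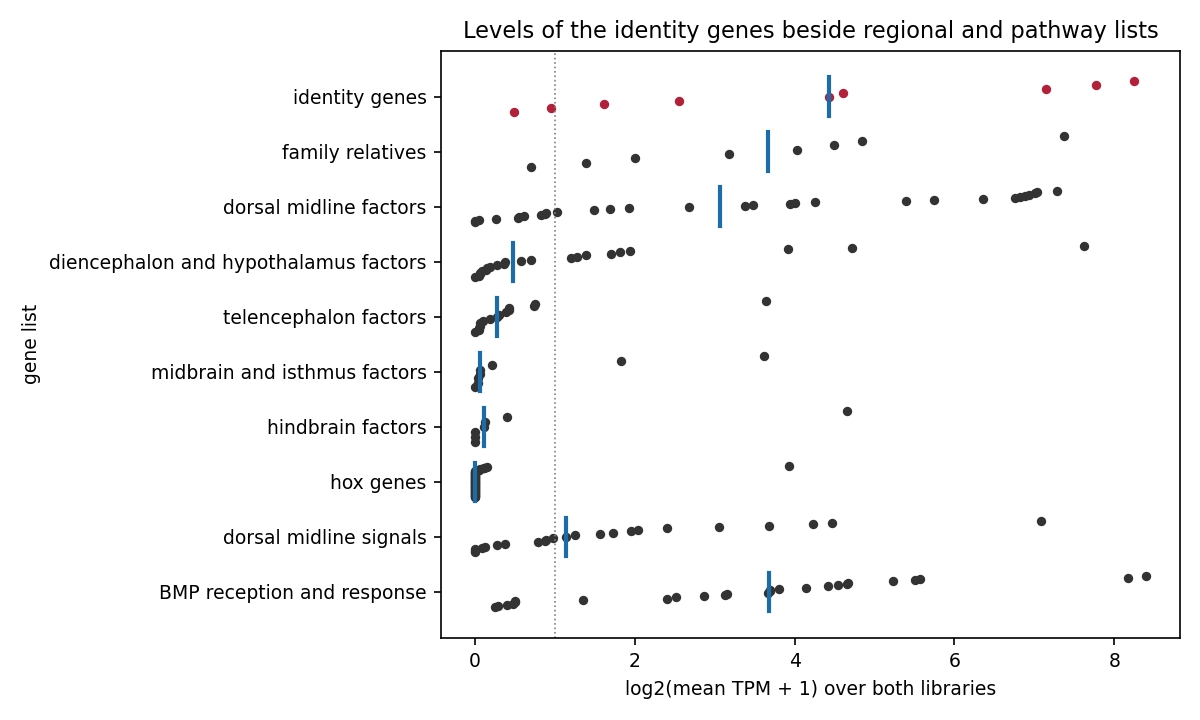
Mean level of each gene as log2(mean TPM + 1) over both libraries, with 1 point per gene and a blue bar at each list's median, for the identity genes (red), their relatives and the regional and pathway lists, with a dotted line at 1 TPM. The 9 identity genes range from lmx1a, below the dotted line, to otx2b, which only id2a exceeds among the genes drawn, while the hox genes lie at or close to 0 except for hoxb8b.

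Signals that act on dorsal midline factors and genes of BMP reception were listed too. Of all genes 54.6% were detected and 26.3% reached 10 TPM in both replicates, to be set beside both lists. Of 23 matched dorsal midline signals, 11 were detected, or 7 at a threshold of 2 TPM, and 4 reached 10 TPM. The median of these signals was 1.21 TPM, beside 2.53 TPM over all genes. They were led by wls, needed for Wnt secretion, at 134 ± 7.69 TPM, the BMP ligand bmp6 at 21.1 ± 8.08 and bmp4 at 17.8 ± 1.33 TPM (SD, n = 2). The roof plate ligand wnt3a was at 1.47 TPM in replicate 1 and 0.220 TPM in replicate 2, and wnt1 and wnt5a had no counts. These 3 genes were picked after their values were seen, so they do not stand for the list. Of 26 genes of BMP reception and response, 19 were detected and 12 reached 10 TPM, with a median of 11.8 TPM. The BMP-responsive inhibitors id2a and id1 led them at 336 ± 14.9 and 287 ± 44.1 TPM, before the receptor gene acvr1l at 46.4 ± 7.87 TPM (SD, n = 2). The Msx1 duplicates, which act downstream of the same signals, had means of 2.06 and 4.88 TPM for msx1a and msx1b. Their relatives msx3, msx2a and msx2b had means of 165, 27.8 and 3.01 TPM.

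Markers of the labelled tissue and of its neighbours were listed beside these values. The lists were chosen with earlier results of these data known, so the numbers detected cannot serve as a check of the tissue. Of all genes 54.6% were detected by the same rule. Of 18 choroid plexus epithelium symbols listed, 16 matched a gene name and 14 were detected, led by rbp4, igfbp2a and clic6. The genes ttr and kl were below 1 TPM in both libraries. Of 18 fibroblast and meninges markers 14 were detected, led by slc13a3, mmp2 and dcn, with a list median of 8.36 TPM. The list summed to 797 and 684 TPM in replicates 1 and 2, of which slc13a3 alone gave 494 and 345 TPM. All 12 endothelium and mural markers were detected, led by plvapa, pdgfrb and cav1, with sums of 322 and 334 TPM. Of 9 macrophage markers 8 were detected, with sums of 334 and 324 TPM. Their leading genes moved in opposite directions, with cd74a at 133 and 197 TPM, apoeb at 170 and 61.7 TPM and grn1 at 3.54 and 30.4 TPM in replicates 1 and 2. Of 12 habenula markers 4 were detected, led by kctd12.1 (125 and 128 TPM), nrp1a and kctd12.2, with sums of 249.7 and 211 TPM. The genes gng8 and kiss1, picked after their values were seen, were at 0.110 and 0.0800 TPM in replicate 1 and at 0 in replicate 2. Which of these cells held the RNA of the 9 genes was not measured in whole tissue.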

How the data were processed

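Reads were processed with STAR (version not stated in the sources used here) and RSEM 1.3.3 on build GRCz11, per the submitters' processing notes, and no annotation is named in those sources. The authors deposited expected counts, the read numbers RSEM estimated per gene, together with TPM by effective length and FPKM, per the file headers, and FPKM was not used. The authors' table of 21019 genes gave a TPM within 0.005 of the mean of both libraries and was used for names. Totals were 11712489 and 13446356 expected counts in replicates 1 and 2, and 3 counts corresponded to 0.256 and 0.223 CPM.

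Names came from the authors for 20973 genes and from a reference table for 3589. No sequence or coordinate of build GRCz11 was used here. Levels are TPM per library and mean ± SD. Intervals are exact Poisson for a count and exact binomial for a ratio of counts, at 95%, of counting error only. No test between groups was run, because both libraries form 1 group. TMM factors came from edgeR 4.0.16 on rounded expected counts. The calculation of the ratio was run on simulated counts with counting error only, with changes set in genes averaging 10 TPM or more. That run does not cover changes in lower genes or real variation between pools. The members and lists were chosen with earlier results of these data known. Genes named are the 9 members, all 8 relatives, the 3 highest of each list and the 2 factors nearest to each detected member. The genes wnt3a, wnt1, wnt5a, ttr, kl, gng8 and kiss1 were named after their values were seen, and en1a, en2a and pax2a as symbols without a match. A gene that this rule names is not reported here.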

Additional observations from a re-analysis of the deposited data

How the results depend on the processing

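The counts of members at a TPM of at least 10 and 100 stayed at 5 and 3 in each alternative run. These alternatives were CPM, annotated length, scaling without mitochondrially encoded and ribosomal protein genes, and 1 library alone. The count at 1 TPM stayed at 7 under the same alternatives, except for 8 in replicate 1 alone. It was also 7 at limits of 0.5 TPM and of 10 counts, and 6 at a limit of 2 TPM. The number of members past 2-fold between the libraries was 0, and 3 with a pseudocount of 0.1, which holds down low genes less. It was 0 under the other 6 alternatives, TMM, CPM, annotated length, both filters and no centring. The share of all genes past 2-fold with a pseudocount of 0.1 was not computed. Scaling without mitochondrially encoded and ribosomal protein genes raised the mean of otx2b to 444 TPM, and annotated length raised it to 353 TPM. In replicate 1 alone 19 pineal markers, 14 neuron markers and 3 telencephalon factors were at 1 TPM or more, beside 15348 of all 25432 genes. At a threshold of 2 TPM the lists that changed most in proportion were the dorsal midline signals, pineal markers and midbrain and isthmus factors. They then had 7, 7 and 1 detected genes. The share of all genes at that threshold was not computed. No paired analysis was possible because both libraries belong to 1 group. Depth limits lmx1a, lmx1ba, msx1a and msx1b, which had from 1 to 80 counts a library.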
